A study of Mus musculus with 2 samples.

Results

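The AP-1 family is a group of transcription factors that bind DNA as pairs, and 8 of its genes were chosen by name among the 33696 genes listed for each library: Fos, Fosb, Fosl1 and Fosl2 of the Fos branch, Jun, Junb and Jund of the Jun branch, and Atf3. Their raw UMI counts (unique molecular identifiers, 1 per captured RNA molecule) were described across cell classes of the tibialis anterior (TA) muscle and between 2 single-cell libraries.

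The library labelled KO pooled 10 TA muscles from 5 male mice of a knockout strain, and the library labelled WT pooled 10 TA muscles from 5 male wild-type mice. In both, muscles that the labels mark ND, an abbreviation they do not spell out, were minced and kept with Collagenase II and Dispase II at 37 °C for 1 h, red cells were lysed, and viable cells were sorted. Autocrine signalling by the growth factor IGF-I in progenitors of the muscle stroma is the subject of the series, but the deleted gene part, the cells that carry the deletion and the age of the mice are not given in the sources used here. With 1 library per genotype, strain, pooled animals, digestion, library preparation and depth cannot be told apart from genotype, no test between genotypes was possible, and every interval below covers counting error only.

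The library labelled KO held 19531 barcodes with a median of 4010 UMIs, and the library labelled WT held 11360 barcodes with a median of 2688.5 UMIs. Filtering kept 18554 KO and 10272 WT barcodes, of which 13021 and 8302 received a cell class from marker genes that include no AP-1 member. Although the labels call the cells fibro-adipogenic progenitors (FAPs, the mesenchymal progenitors of muscle), only 5.31% of kept KO barcodes and 13.9% of kept WT barcodes were FAP-like. All 8 of the FAP markers were above 20 CPM (the gene's UMIs scaled to all UMIs of its class and library) in FAP-like cells of both libraries, and every marker of the other 11 classes described was above it in its own class. The classes were gated on these same markers, so these levels are no independent check of class identity. Igf1, the gene of insulin-like growth factor I, was at 399 CPM in KO and 384 CPM in WT FAP-like cells. Other classes differed in both directions. Igf1 was at 82.4 CPM in KO and 232 CPM in WT tenocyte-like cells, and at 9.31 and 84.1 CPM in macrophage-like cells. Perineurial-like cells held 124 CPM in KO and 48.8 CPM in WT. A 3' tag outside the deleted part would check nothing, so KO and WT here mean the libraries so labelled. The libraries shared 61 barcode sequences.

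Fos and Jun proteins join through their leucine zippers into AP-1 dimers that bind the sequence TGANTCA, while Atf3 and other members of the wider bZIP class prefer the longer TGACNTCA. Fos, Fosb, Jun, Junb and Atf3 are early response genes, transcribed within minutes of growth factor, cytokine or stress signals through MAP kinases, serum response factor and CREB. In muscle, warm enzymatic digestion is itself known to induce them in satellite cells and other resident cells, so levels in digested tissue mix the state in the animal with the response to isolation. No undigested sample was analysed here, and these sources cannot be told apart.

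The promoters of the 5 early response members are shown because signals reach the genes there. RefSeq's promoter table of build GRCm38.p6 held 7 of the 8 members. The letters below are the 150 bases before the transcription start, 5′ to 3′ on the strand of the gene, with capitals at matches to the short CREB core TGACG, the AP-1 element TGANTCA, the longer bZIP element TGACNTCA, the TATA box TATAAA or the CArG box that serum response factor binds, searched on both strands in the 250 bases before the start. Fos lies on the plus strand at chr12:85473740-85473889, Fosb on the minus strand at chr7:19310046-19310195, Jun on the minus strand at chr4:95052223-95052372, Junb on the minus strand at chr8:84978749-84978898 and Atf3 on the minus strand at chr1:191183334-191183483.
Fos: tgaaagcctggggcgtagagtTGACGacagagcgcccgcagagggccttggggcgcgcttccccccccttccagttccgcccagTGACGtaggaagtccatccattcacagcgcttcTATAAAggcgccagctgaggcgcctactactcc
Fosb: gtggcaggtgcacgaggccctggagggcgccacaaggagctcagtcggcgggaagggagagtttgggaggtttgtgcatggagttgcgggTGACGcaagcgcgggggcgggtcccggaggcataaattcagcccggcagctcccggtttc
Jun: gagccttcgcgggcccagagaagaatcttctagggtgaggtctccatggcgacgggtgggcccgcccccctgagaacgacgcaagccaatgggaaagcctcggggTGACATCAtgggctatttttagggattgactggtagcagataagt
Junb: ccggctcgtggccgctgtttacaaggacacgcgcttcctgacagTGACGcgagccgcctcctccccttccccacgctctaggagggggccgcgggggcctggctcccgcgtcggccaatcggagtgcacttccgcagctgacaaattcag
Atf3: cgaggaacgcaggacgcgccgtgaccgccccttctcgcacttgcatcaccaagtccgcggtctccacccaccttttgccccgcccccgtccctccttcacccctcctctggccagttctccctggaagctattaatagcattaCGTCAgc

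Fos held TGACG 129 to 125 and 66 to 62 bases before the start, with TATAAA at 33 to 28. Jun held TGACATCA, a form of the longer bZIP motif, at 45 to 38 bases before the start. In Junb TGACG lay at 106 to 102 bases before the start, and in Atf3 its reverse complement CGTCA lay at 7 to 3. Fosb also held TGACG, at 60 to 56 bases before the start, whereas Fosl2 and Jund had no match in this window. Among 27025 promoters of the same length, 17.86% held TGACG, 7.593% TGACNTCA, 6.868% TGANTCA, 12.97% TATAAA and 1.399% a CArG box. TGACG is contained in those TGACNTCA matches whose free base is G, and none of the matches above overlapped another. Such matches describe letters and do not show binding.

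Levels across cell classes were compared first. In both libraries the family was led by the tenocyte-like cells (tendon fibroblasts) and FAP-like cells, where the 8 genes together made up 19760 and 17073 CPM in KO and 17814 and 17361 CPM in WT. Endothelial-like cells held 12173 CPM of the family in KO and 10625 CPM in WT. T cell-like cells held 3654 CPM in KO and 3265 CPM in WT, and the myofibre-like barcodes 2821 CPM in KO and 1420 CPM in WT. These sums count 3' tags, 1 per molecule, without a correction for gene length.

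**Figure D1:**
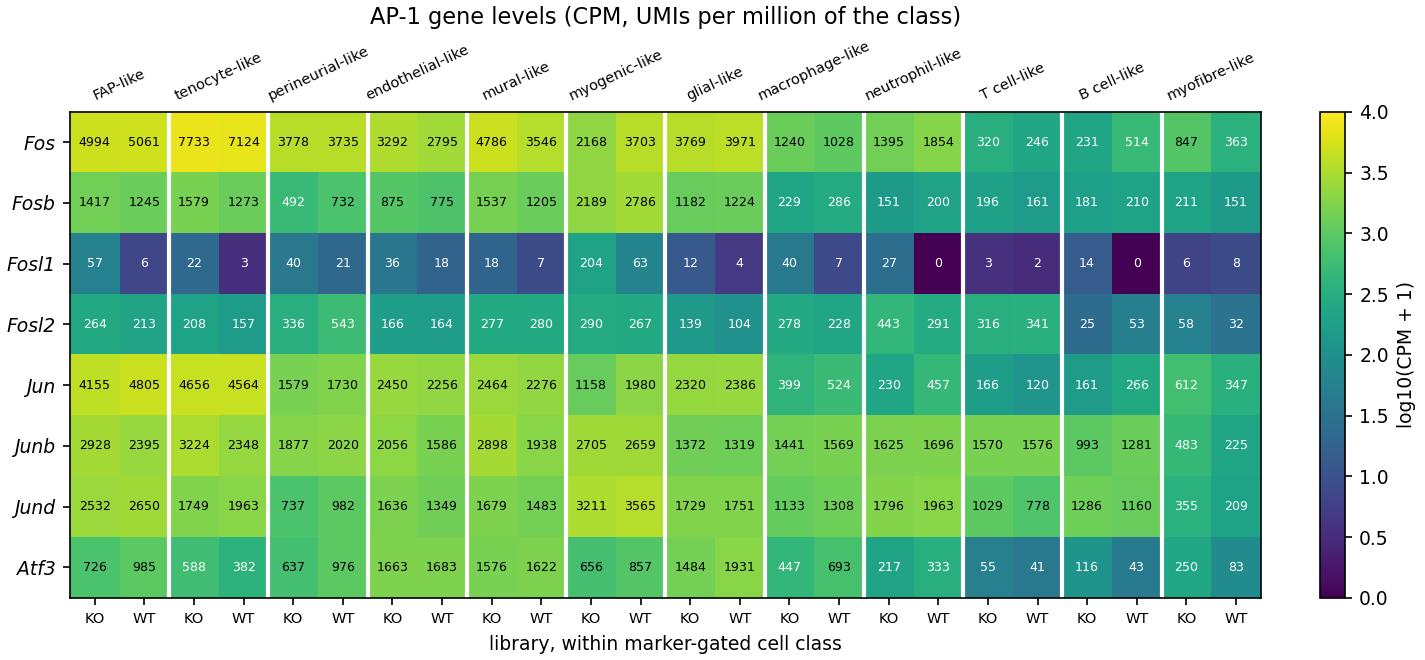
Level of each AP-1 gene (rows) in 12 marker-gated cell classes (paired columns, KO left and WT right); colour shows log10(CPM + 1) and the number in each cell is the CPM. Fos and Jun are brightest in tenocyte-like and FAP-like cells and dim in T cell-like and B cell-like cells, while Junb and Jund stay near 1000 CPM or above in T cell-like cells of the library labelled KO.

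Fos, the prototype early response partner of Jun, was highest in tenocyte-like cells. These carried 7733 CPM in KO and 7124 CPM in WT, and FAP-like cells 4994 CPM in KO and 5061 CPM in WT. T cell-like cells had the least among the 9 compared classes, those with at least 100 cells in both libraries, at 320.2 CPM in KO and 246 CPM in WT. Between the highest and the lowest of these classes lay a fold of 24.2 in KO and 28.9 in WT. Among neighbours in that order, the WT intervals of glial-like, perineurial-like, myogenic-like and mural-like cells overlapped from each to the next, and in KO those of perineurial-like and glial-like cells did.

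Jun, which can pair with Fos or with itself, ran in a similar order. FAP-like cells held 4155 CPM in KO and 4805 CPM in WT, and tenocyte-like cells 4656 CPM in KO and 4564 CPM in WT. Among the 9 compared classes T cell-like cells again had the least, at 166 CPM in KO and 119.8 CPM in WT, while B cell-like cells, outside them, held 161 CPM in KO and 266 CPM in WT.

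Fosb, which shares the early response of Fos, was instead highest in myogenic-like cells (satellite cells and their progeny), at 2189 CPM in KO and 2786 CPM in WT. The next class, the tenocyte-like cells, held 1579 CPM in KO and 1273 CPM in WT. Jund, the Jun branch gene known for steady transcription in resting cells, was also highest in myogenic-like cells, at 3211 CPM in KO and 3565 CPM in WT.

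Atf3, a stress-induced bZIP factor, was ordered differently from Fos and Jun. It was high in endothelial-like cells, at 1663 CPM in KO and 1683 CPM in WT. Mural-like cells (vessel wall cells) had 1576 CPM in KO and 1622 CPM in WT, and glial-like cells 1484 CPM in KO and 1931 CPM in WT. FAP-like cells had only 726 CPM in KO and 985 CPM in WT, and tenocyte-like cells 588 CPM in KO and 382 CPM in WT. Fosl2, a slower member of the Fos branch, spanned a fold of 5.41 in KO and 10.7 in WT between T cell-like cells and myofibre-like barcodes, the ends of its order among the 9 compared classes.

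The leukocyte classes stood apart from 7 of the other classes in their partners. Over the macrophage-like, T cell-like, B cell-like and neutrophil-like cells, Jun ranged from 161 to 399 CPM in KO and from 119.8 to 524 CPM in WT. In the 7 mesenchymal, vascular, myogenic and glial classes it ranged from 1158 to 4656 CPM in KO and from 1730 to 4805 CPM in WT, so these groups of classes did not overlap. Fos, Fosb and Atf3 were likewise below every one of these 7 classes in the leukocyte classes of KO. In WT this held for Fos and Fosb, whereas macrophage-like cells, at 693 CPM, exceeded tenocyte-like cells in Atf3. How many of all genes separate these groups was not counted, so the split is not shown to be particular to AP-1 genes. Myofibre-like barcodes, in neither group, had Jun at 612 CPM in KO and 347 CPM in WT, and Fos at 847 and 363 CPM. Their Fos lay under that of macrophage-like cells in both libraries, and their Jun did so in WT.

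Junb, a Jun branch member that restrains Jun in some settings and is prominent in T cells, did not follow that split. Across the 4 leukocyte classes it ranged from 993 to 1625 CPM in KO and from 1281 to 1696 CPM in WT. Glial-like cells, at 1372 CPM in KO and 1319 CPM in WT, fell inside that range. Jund in leukocyte classes ranged from 1029 to 1796 CPM in KO and from 778 to 1963 CPM in WT, which overlapped the other classes in both libraries.

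The make-up of the family showed the same pattern. Junb and Jund together supplied 71.1% of the family's UMIs in KO T cell-like cells and 72.1% in WT T cell-like cells. In FAP-like cells their share was 32.0% in KO and 29.1% in WT, and Fos alone supplied 29.3% in KO and 29.2% in WT. Myogenic-like cells lay between, with 47.0% from Junb and Jund in KO and 39.2% in WT.

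**Figure D2:**
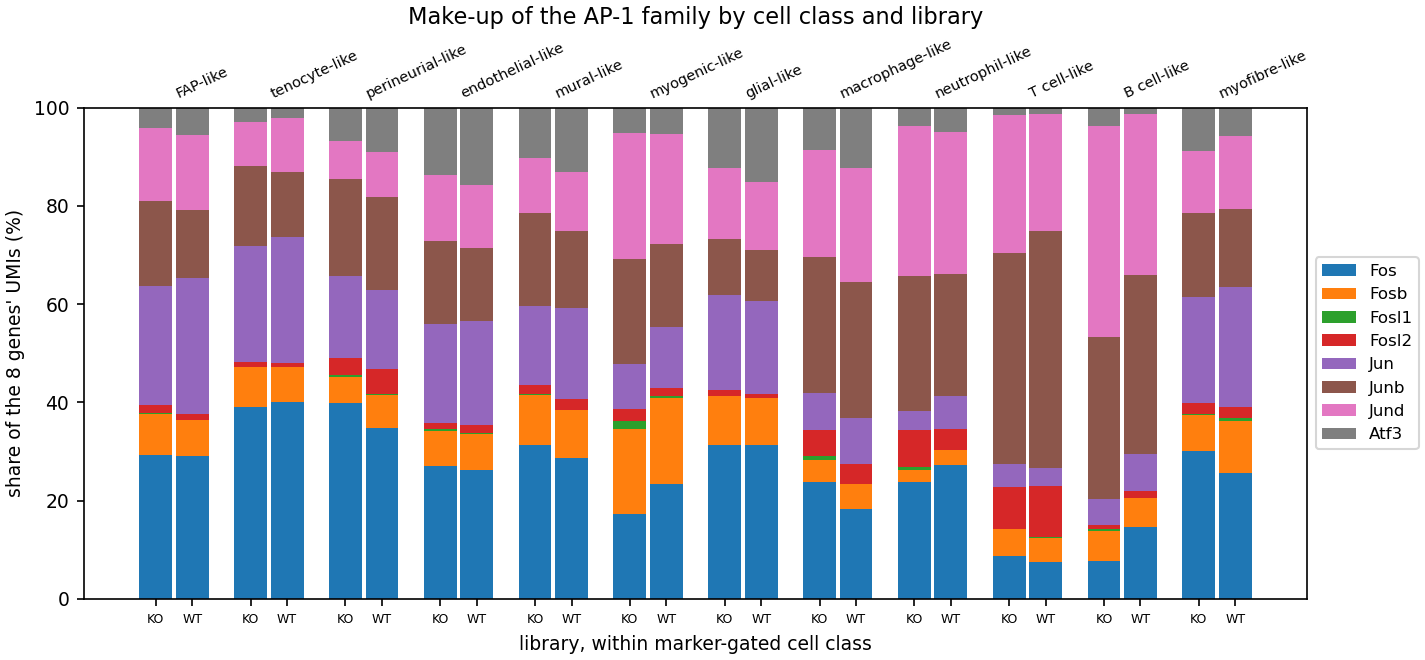
Share of the 8 genes' UMIs (%) supplied by each gene in 12 cell classes, KO bar left of WT bar. Junb and Jund fill 71.1% of the KO bar and 72.1% of the WT bar in T cell-like cells, against 32.0% and 29.1% in FAP-like cells.

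Subsets within classes, gated on marker genes that were chosen after the data had been seen, differed in AP-1 genes, and most folds between them ran the same way in both libraries. FAP-like cells with at least 2 of G0s2, Mme, Cxcl14 and Fbln7 were set against those with at least 2 of Pi16, Dpp4, Sema3c and Stmn4. Jun was at 5746 CPM in the G0s2/Mme cells and 1464 CPM in the Pi16/Dpp4 cells of KO, a fold of 3.92, and at 6965 and 2001 CPM in WT, a fold of 3.48. Fosb had folds of 3.63 in KO and 4.27 in WT, Fos 2.30 and 2.01, and Jund 2.11 and 2.09.

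Atf3 went the other way between these FAP-like subsets, with 574 CPM in the G0s2/Mme cells and 798 CPM in the Pi16/Dpp4 cells of KO, and 763 and 1471 CPM in WT. Junb was near equal in them, with folds of 1.01 in KO and 1.13 in WT. The subsets held 307 and 126 cells in KO, and 482 and 263 cells in WT, so the shares of FAP-like cells were 31.2 and 12.8% in KO against 33.8 and 18.4% in WT.

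Endothelial-like cells with the arterial genes Gja4, Gja5, Sema3g and Hey1 carried 2366 CPM of Atf3 in KO and 2549 CPM in WT. Those with the capillary genes Rgcc, Car4, Gpihbp1 and Cd300lg carried 1343 CPM in KO and 1255 CPM in WT, and Jun lay the other way, at 0.78 and 0.76 times the capillary level in the arterial set. Cells with the venous genes Vwf, Selp, Ackr1 and Vcam1 had Jun at 0.59 times the capillary level in KO and 0.55 in WT. Fosl2 in these Vwf/Selp cells was 2.47 times the capillary level in KO and 1.91 times in WT.

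Mural-like cells also held distinct subsets. Cells with the pericyte genes Kcnj8, Abcc9, Rgs5 and Higd1b exceeded those with the smooth muscle genes Myh11, Acta2, Cnn1 and Actg2 in Fos by a fold of 1.81 in KO and 1.87 in WT, and in Fosb by 1.94 and 2.46. Atf3 was lower in the Kcnj8/Abcc9 cells, at 0.72 times the Myh11/Acta2 level in KO and 0.64 in WT, and so was Fosl2, at 0.49 and 0.70 times. Among macrophage-like cells, those with C1qa, Mrc1, Folr2 and Cbr2 (resident macrophage genes) exceeded those with Ly6c2, Ccr2, Plac8 and Chil3 (monocyte genes) in Atf3 by 3.85-fold in KO and 4.02-fold in WT. Jun differed between them by 3.06-fold in KO and 4.20-fold in WT. Fos did not keep its direction, with folds of 0.77 in KO and 1.32 in WT. The Ly6c2/Ccr2 cells numbered 75 in KO and 26 in WT, and their WT values rest on 44 Atf3 UMIs and 34 Jun UMIs.

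**Figure D3:**
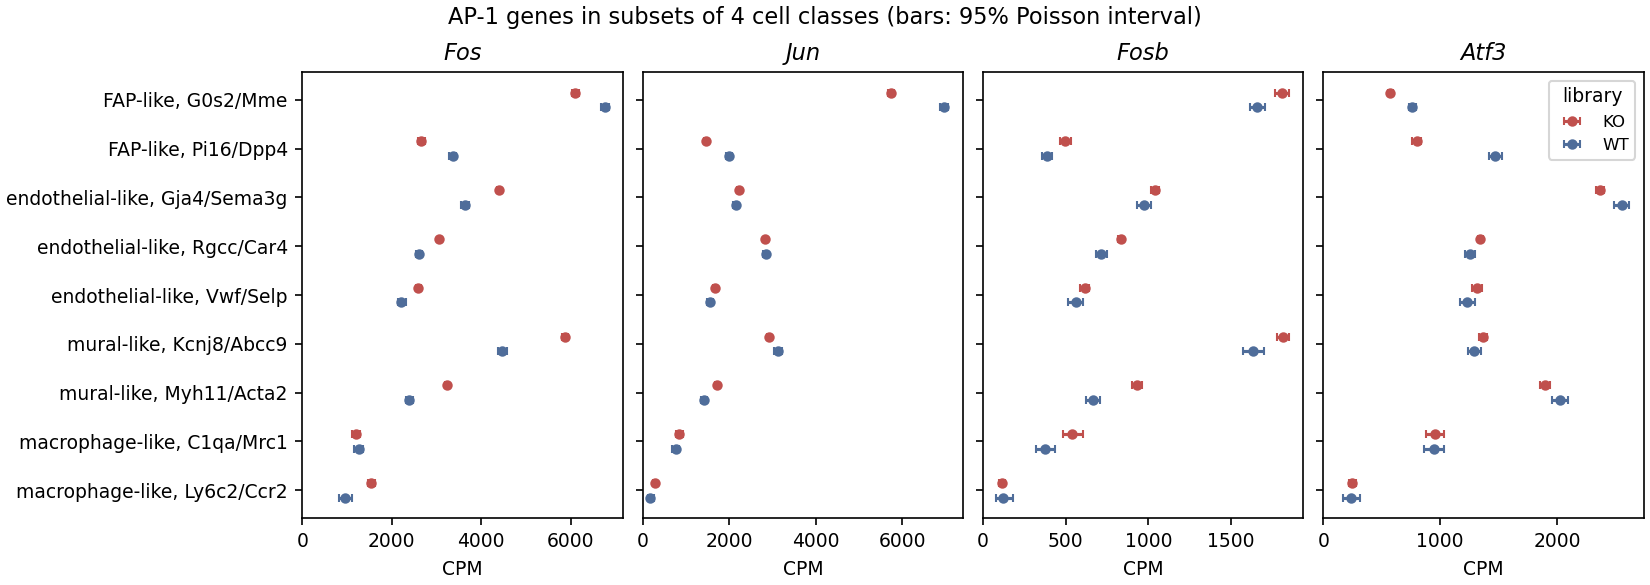
CPM of Fos, Jun, Fosb and Atf3 in subsets of 4 cell classes, KO above WT in each row; bars are exact Poisson 95% intervals for counting error. Jun is far higher in G0s2/Mme than in Pi16/Dpp4 FAP-like cells of both libraries, while Atf3 is higher in the Pi16/Dpp4 cells.

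Cell-to-cell spread was described after each cell had been thinned to 2000 UMIs. At that depth a Fos UMI was found in 84.9% of 953 KO and 86.6% of 1322 WT FAP-like cells, and the 10% of cells with most Fos held 36.8% of its UMIs in KO and 33.6% in WT. Myogenic-like cells were more uneven, and the corresponding 10% held 66.6% of Fos UMIs in KO and 51.2% in WT. Fos and Jun varied together from cell to cell, with a Spearman rho of 0.70 in KO and 0.72 in WT FAP-like cells. Mural-like cells gave 0.72 in both libraries, over 1884 KO and 935 WT cells, and myogenic-like cells 0.36 in KO and 0.48 in WT. These correlations are across cells of 1 library, which share that library, and the counts are sparse.

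The libraries were then compared within classes, gene by gene, as a log2 ratio of KO over WT with 1 CPM added to both. A pair of gene and class was compared where the gene reached 20 CPM in 1 library and 100 UMIs over both, which 67 pairs did over the 9 compared classes. The AP-1 genes were at least 1.5-fold higher in KO in 12 pairs, lower in 3 and neither in 52. Over all genes in these classes 9.32% of pairs were higher in KO and 7.31% lower. With each cell thinned to 2000 UMIs the counts were 6 higher and 3 lower. Some pairs fell under the floor of 100 UMIs after thinning, among them Fosl1 in tenocyte-like and macrophage-like cells, at log2 ratios of 2.38 and 2.28. Of the 12 higher pairs, 5 were Fosl1 and 6 lay in myofibre-like barcodes, and no other member passed that fold in more than 2 classes in 1 direction. Fosl1 met the floor of 20 CPM only through KO in FAP-like, tenocyte-like, macrophage-like and endothelial-like cells. A lower call was therefore not open to it in those classes. In myofibre-like barcodes, at 5.62 CPM in KO and 7.57 CPM in WT, it was not compared.

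**Figure D4:**
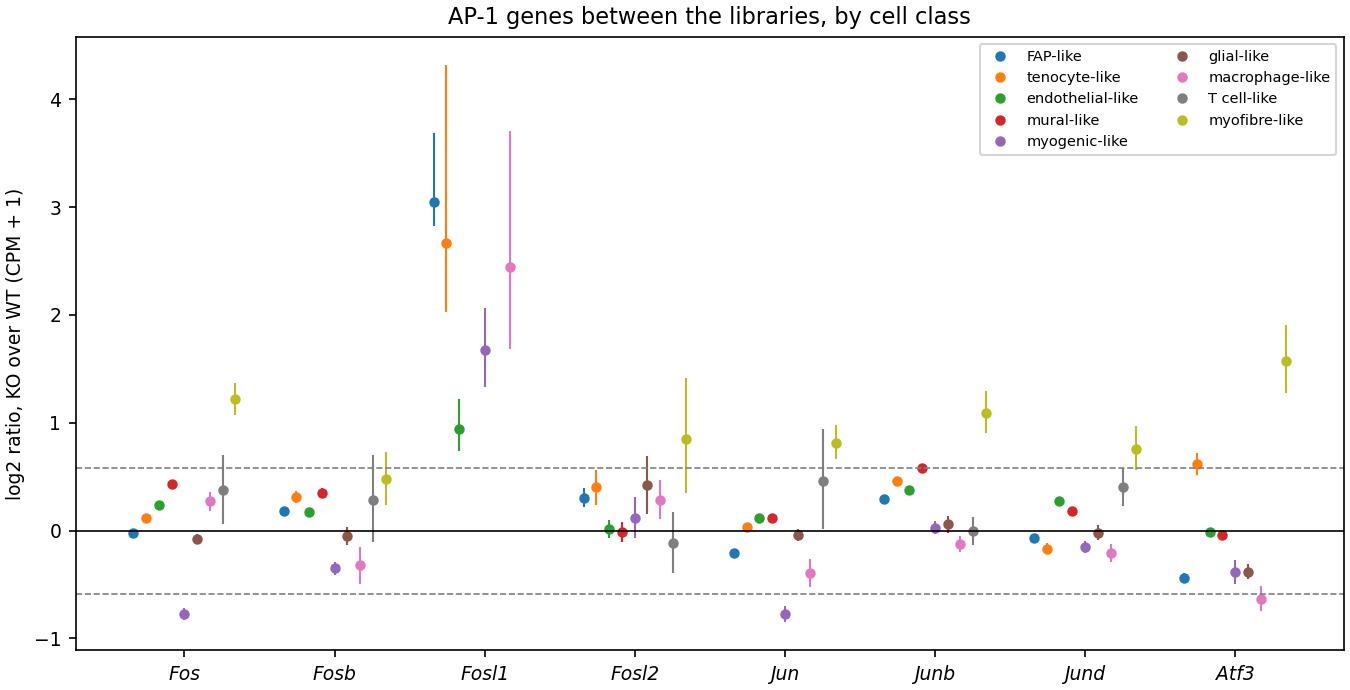
Log2 ratio of KO over WT (CPM + 1) for each AP-1 gene in the compared classes; points are classes, bars are exact 95% intervals for counting error and dashed lines mark 1.5-fold. Fosl1 stands above the upper line in all 5 classes where it was compared, myofibre-like points lie above it for 6 genes, and Fos and Jun lie below the lower line in myogenic-like cells. In FAP-like, tenocyte-like, macrophage-like and endothelial-like cells Fosl1 met the floor of 20 CPM only through KO.

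Apart from Fosl1, and Atf3 in tenocyte-like cells, no compared member passed 1.5-fold between the libraries in FAP-like, tenocyte-like, endothelial-like or mural-like cells. Over all genes 12.6% were higher and 11.4% lower in FAP-like cells, and 12.3% and 9.66% in tenocyte-like cells. Junb had a log2 ratio of 0.46 in tenocyte-like cells. In FAP-like cells, Fos had a log2 ratio of -0.02, Jun -0.21, Jund -0.07, Fosb 0.19, Junb 0.29, Fosl2 0.31 and Atf3 -0.44. In mural-like cells Junb was at 2898 CPM in KO and 1938 CPM in WT, a log2 ratio of 0.58 that lay just inside the 1.5-fold line, and Fos at 4786 CPM in KO and 3546 CPM in WT had 0.43. Endothelial-like cells had Junb at 2056 CPM in KO and 1586 CPM in WT, a log2 ratio of 0.37, with 2.42% of all genes there at least 1.5-fold higher. Ranked among all genes of the class, Junb stood at percentile 95.7 in mural-like and 92.5 in endothelial-like cells, and Fos at 92.1 and 81.9. Fosl2 and Atf3 stood lower, at 47.6 and 43.7 in mural-like and at 49.6 and 45.2 in endothelial-like cells. Glial-like cells lay near 0 for Fos, Fosb, Jun, Junb and Jund, from -0.08 to 0.06, with Fosl2 at 0.42 and Atf3 at -0.38. In mural-like cells 4.12% of all genes were at least 1.5-fold higher and 6.19% lower, and in glial-like cells 4.59% and 3.72%. No AP-1 gene passed the fold in T cell-like cells, where Jun had 0.46, Jund 0.40 and Fos 0.38, against 7.74% of all genes higher and 4.12% lower. Of all genes in endothelial-like cells 5.97% were lower, a direction in which no member passed. The median over members was 0.08 in FAP-like and 0.21 in endothelial-like cells, against 0.03 and 0.02 over all genes.

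Fosl1 (ENSMUSG00000024912), which encodes the Fos branch member FRA-1, differed most. FAP-like cells held 649 UMIs or 56.9 CPM in KO (exact Poisson 95% interval 52.6 to 61.4), against 50 UMIs or 6.01 CPM in WT (4.46 to 7.93). The log2 ratio was 3.04 (exact conditional interval 2.83 to 3.69), where 12.6% of all genes passed 1.5-fold upward and 11.4% downward. Tenocyte-like cells had 22.0 CPM in KO and 2.62 CPM in WT, a log2 ratio of 2.66, where the WT value rests on 8 UMIs. In macrophage-like cells Fosl1 was at 40.4 CPM in KO and 6.62 CPM in WT, a log2 ratio of 2.44, with 10 UMIs in WT and 14.2% of all genes past the fold upward.

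Myogenic-like cells carried the most Fosl1 in both libraries, 204 CPM in KO and 63.3 CPM in WT, a log2 ratio of 1.67 (1.33 to 2.07), in a class where 14.4% of all genes passed the fold upward. Endothelial-like cells had 35.6 CPM in KO and 18.1 CPM in WT, the smallest of the 5 log2 ratios at 0.94 (0.74 to 1.22). Mural-like cells, at 18.2 CPM in KO and 7.25 CPM in WT, and glial-like cells, at 11.98 CPM in KO and 3.58 CPM in WT, stayed under the level needed for comparison. T cell-like cells had 3 Fosl1 UMIs in KO and 1 in WT, and myofibre-like barcodes 16 UMIs or 5.62 CPM in KO and 9 UMIs or 7.57 CPM in WT.

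Depth moved with the libraries, since FAP-like cells had a median of 11160 UMIs in KO and 5555 in WT. In cells thinned to 2000 UMIs, a Fosl1 UMI was found in 8.39% of KO FAP-like cells (Clopper-Pearson 95% interval 6.71 to 10.3%) and in 0.908% of WT ones (0.470 to 1.58%), against 28.8% and 2.52% before thinning. The thinned shares were 23.1% in KO and 8.80% in WT myogenic-like cells, and 5.44% in KO and 3.31% in WT endothelial-like cells. T cell-like cells, which served as a class with little Fosl1, had a Fosl1 UMI in 0 of 127 thinned KO cells and 0 of 102 thinned WT cells, which allows shares of up to 2.36% and 2.94% by a floor of 3 counts, and of up to 2.86% and 3.55% by the Clopper-Pearson interval. Before thinning their shares were 2.34% at a median of 8152 UMIs in KO and 0.926% at a median of 3710 UMIs in WT. The thinned WT shares in FAP-like, tenocyte-like and macrophage-like cells, at 0.908%, 0.522% and 1.19%, lie under both limits and are not separated from free RNA. The WT share in endothelial-like cells lies above the first limit and under the second. So does the KO share in tenocyte-like cells, at 2.85%, against the KO limits. Restricted to cells of 2000 to 8000 UMIs, FAP-like cells held 40.5 CPM in KO and 5.02 CPM in WT, a log2 ratio of 2.79.

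**Figure D5:**
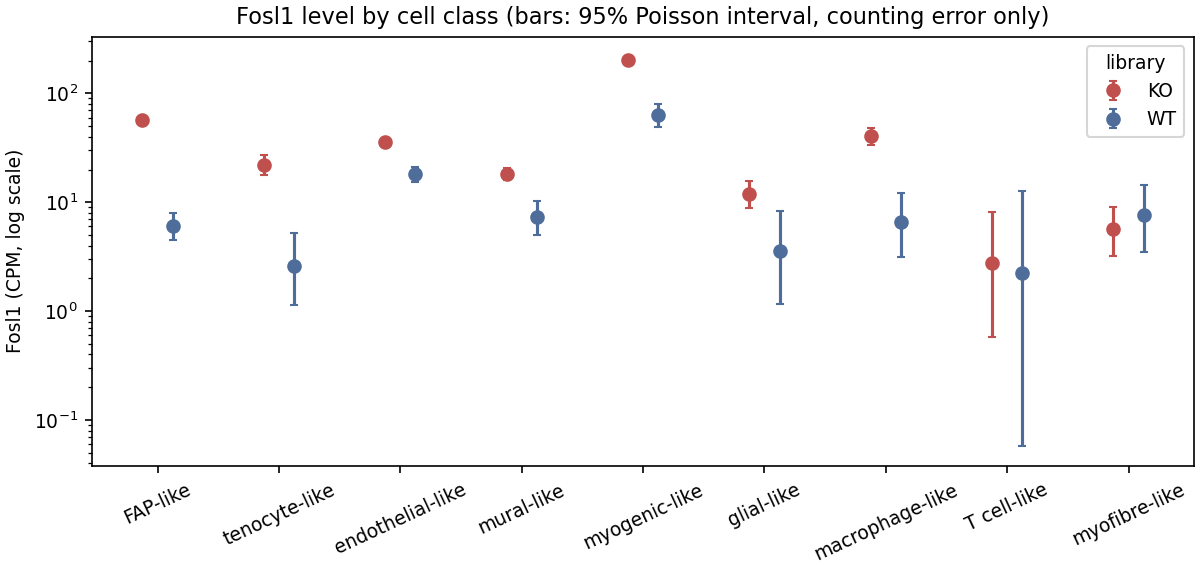
Fosl1 level (CPM, log scale) in the 9 compared cell classes, KO left of WT; bars are exact Poisson 95% intervals for counting error. KO points lie above the WT points in 7 classes with intervals apart, whereas the intervals overlap in T cell-like and myofibre-like cells.

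Within FAP-like cells the higher Fosl1 level was present in every subset gated. Pi16/Dpp4 cells had 73.3 CPM in KO and 10.9 CPM in WT, and G0s2/Mme cells 54.8 CPM in KO and 3.30 CPM in WT. These WT values rest on 19 and 10 UMIs. Cells with a UMI of F2rl1, the gene of a protease-activated receptor that was at 74.5 CPM in KO and 2.89 CPM in WT FAP-like cells, made up 21.0% of KO and 1.40% of WT FAP-like cells. Fosl1 was at 66.6 CPM in the KO cells with an F2rl1 UMI and at 53.4 CPM in those without, and without the F2rl1 cells the log2 ratio was 2.96. The 20 WT cells with an F2rl1 UMI held 1 Fosl1 UMI, at 6.85 CPM (0.17 to 38.2). The 7 erythroid markers summed to 46.9 CPM in KO and 7.94 CPM in WT FAP-like cells, and the 8 neutrophil markers to 28.4 CPM in KO and 11.9 CPM in WT, with 4 of the 8 at 0 in WT. Macrophage markers summed to 41.3 CPM in KO and 9.02 CPM in WT FAP-like cells, and endothelial markers to 172 and 86.2 CPM. Tenocyte markers summed to 121 CPM in KO and 96.6 CPM in WT there, and perineurial markers to 57.5 and 29.5 CPM. Myogenic markers, at 24.7 CPM in KO and 30.3 CPM in WT, went the other way, and myofibre markers were near equal, at 215 and 217 CPM. In macrophage-like cells the neutrophil markers summed to 179 CPM in KO and 91.4 CPM in WT. Neutrophil-like cells themselves held Fosl1 at 27.3 CPM in KO, from 38 UMIs, and 0 UMIs in WT. The part of RNA from these other classes in the Fosl1 values was not tested. Barcodes that met no class held 66.7 CPM of Fosl1 in KO and 21.9 CPM in WT.

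Myogenic-like cells combined higher Fosl1 with lower Fos and Jun in KO. Fos was at 2168 CPM in KO and 3703 CPM in WT, a log2 ratio of -0.77 (-0.83 to -0.72), and Jun at 1158 CPM in KO and 1980.3 CPM in WT, also -0.77 (-0.85 to -0.70). Of all genes there 8.88% were at least 1.5-fold lower in KO, and Fos and Jun stood at percentiles 4.67 and 4.66 among them. Junb, at 2705 CPM in KO and 2659 CPM in WT, had a log2 ratio of 0.02. Cells with at least 2 of Pax7, Calcr, Chrdl2 and Spry1, the quiescent satellite cell genes, numbered 153 in KO and 118 in WT. They held Fos at 3707 CPM in KO and 5620 CPM in WT, Jun at 1515 and 2649 CPM, and Fosl1 at 181 and 30.0 CPM.

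Other markers moved with the myogenic-like values. The 8 myogenic markers summed to 1456 CPM in KO and 2099.5 CPM in WT, and the 8 endothelial markers to 176 CPM in KO and 38.5 CPM in WT, with Cldn5 at 0 in WT. The 8 FAP markers summed to 435 CPM in KO and 604 CPM in WT, with Pdgfra at 0 in both, and the 8 mural markers to 177 CPM in KO and 238 CPM in WT. Their part in the Fos and Jun values was not tested. Among cells of 2000 to 8000 UMIs the Fos log2 ratio was -0.39, inside the 1.5-fold line, and that of Jun was -0.54 when a class needed 4 markers on and a weaker runner-up.

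Atf3 was the third member with a lower value in KO, in macrophage-like cells, at 447 CPM in KO and 693 CPM in WT, a log2 ratio of -0.63 (-0.75 to -0.52). Among all genes of this class 9.16% were at least 1.5-fold lower in KO, and Atf3 stood at percentile 8.32. The median log2 ratio over all genes there was 0.13. Within subsets the levels were close, with 955 CPM in KO and 946 CPM in WT in C1qa/Mrc1 cells, and 248 CPM in KO and 236 CPM in WT in Ly6c2/Ccr2 cells. The mix of subsets differed, since C1qa/Mrc1 cells were 26.0% of the class in KO and 37.5% in WT, and Ly6c2/Ccr2 cells 30.0% in KO and 9.96% in WT. The remaining cells fell outside these gates, and the part of this mix in the Atf3 value was not tested. Fosl1 differed within both, at 66.8 CPM in KO and 4.14 CPM in WT in C1qa/Mrc1 cells, and 49.1 CPM in KO and 5.35 CPM in WT in Ly6c2/Ccr2 cells, though the WT values rest on 2 UMIs and 1 UMI.

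In tenocyte-like cells Atf3 was at 588 CPM in KO and 382 CPM in WT, a log2 ratio of 0.62 (0.52 to 0.72), while 12.3% of all genes there passed that fold upward and 9.66% downward. Its share of cells with a UMI after thinning was 45.6% in KO and 35.5% in WT. Over 17 alternative settings its log2 ratio ran from 0.49 to 0.66, on both sides of the 1.5-fold line.

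The myofibre-like barcodes, defined by contractile and fibre metabolism genes and with a median of 2121 UMIs in KO and 1857.5 UMIs in WT, showed higher values for most members in KO. Fos was at 847 CPM in KO and 363 CPM in WT, a log2 ratio of 1.22 (1.07 to 1.37). In WT 1 barcode carried 31.0% of the class's Fos UMIs, and without the barcode highest in Fos in each library the levels were 805 CPM in KO and 252 CPM in WT, a log2 ratio of 1.67. Atf3 was at 249.6 CPM in KO and 83.3 CPM in WT, a log2 ratio of 1.57, and Junb at 483 CPM in KO and 225 CPM in WT, 1.10. Fosl2, Jun and Jund had log2 ratios of 0.85, 0.82 and 0.76, and Fosb, at 0.48, was neither higher nor lower. In this class 13.8% of all genes were at least 1.5-fold higher in KO and 4.7% lower.

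Markers of other cells moved in the same direction in these barcodes. The 8 endothelial markers summed to 439 CPM in KO and 231 CPM in WT, the 8 mural markers to 394 CPM in KO and 193 CPM in WT, the 8 tenocyte markers to 314 CPM in KO and 135 CPM in WT, and the 7 erythroid markers to 249 CPM in KO and 8.41 CPM in WT. Their part in the AP-1 values was not tested. In barcodes of 2000 to 8000 UMIs, the log2 ratios were 0.34 for Fos, 0.22 for Jun, -0.040 for Junb and 0.03 for Jund, and only Atf3, at 1.01, stayed beyond 1.5-fold among the members compared there.

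Other genes of the pathway were described from 6 lists, up to 3 genes at either end of each being named in FAP-like and endothelial-like cells. The counts read against all genes past the fold, which were 12.6% upward and 11.4% downward in FAP-like, 2.42% and 5.97% in endothelial-like, and 14.4% and 8.88% in myogenic-like cells. In FAP-like cells, 13 of 37 other early response genes passed 1.5-fold upward in KO and none downward, with a median log2 ratio of 0.26 against 0.03 over all genes. Arc, a synaptic early response gene, was at 81.9 CPM in KO and 24.3 CPM in WT, a log2 ratio of 1.71. Egr3, a zinc finger factor, had 87.7 CPM in KO and 26.5 CPM in WT, and Maff, a small MAF protein of the bZIP class, 156 CPM in KO and 50.9 CPM in WT. At the other end, Gadd45g had a log2 ratio of -0.53, Klf4 -0.20 and Ptgs2, the inducible prostaglandin synthase gene, -0.19. Endothelial-like cells had 7 of 36 early response genes higher and none lower, with Arc at 1.58, Maff at 1.19 and Dusp1, a MAP kinase phosphatase gene, at 0.73, and with Pim1 at -0.33, Btg1 at -0.31 and Gadd45g at -0.27.

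Mural-like cells had 14 of 36 early response genes higher and none lower, a median of 0.48 against 0.01. Of all genes there 4.12% were higher and 6.19% lower. Myogenic-like cells had 2 higher and 4 lower of 35, a median of 0.01 against 0.08. Myofibre-like barcodes had 22 higher of 32, a median of 1.03 against 0.06, beside the marker sums given above. In that class 13.8% of all genes were higher and 4.7% lower.

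Genes described as AP-1 targets in other systems were higher in KO FAP-like cells in 13 of 21 compared, with none lower and a median of 0.73. The list was chosen with some of these values known, so it is not independent evidence of a direction. Ccl2, a monocyte chemokine gene, was at 747 CPM in KO and 85.3 CPM in WT, a log2 ratio of 3.12. Thbs1, a matricellular protein gene, had 3382 CPM in KO and 436 CPM in WT, and Tnfrsf12a, the TWEAK receptor gene, 278 CPM in KO and 40.8 CPM in WT. Il6, at -0.06, Plau, the urokinase gene, at 0.06, and Vegfa, at 0.13, were the lowest of the list. In endothelial-like cells 4 of 15 were higher and none lower, led by Sphk1 at 1.56, Plaur, the urokinase receptor gene, at 1.06 and Tnfrsf12a at 0.86, and ending with Itga5 at -0.25, Il6 at -0.25 and Txnrd1 at -0.12. Of 18 in myogenic-like cells, 10 were higher and 3 lower.

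Kinases, ETS factors and SRF cofactors upstream of AP-1 stayed mostly within the fold. None of 17 in FAP-like cells passed the fold upward and 1 did downward, the ETS factor gene Elk3 at 16.3 CPM in KO and 28.1 CPM in WT, a log2 ratio of -0.75. Mapkapk2 had 0.57, Rps6ka3 0.54, Elk4 0.51, Mrtfb -0.58 and Mapk9, a JNK gene, -0.45. None of 17 passed the fold either way in endothelial-like cells, where Mrtfa had 0.47, Mapkapk2 0.24, Mrtfb -0.49, Mapk3 -0.37 and Rps6ka3 -0.21.

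Feedback genes that damp MAP kinase signalling were higher in 5 of 12 in FAP-like cells and lower in 1. Dusp5, an ERK phosphatase gene, was at 45.9 CPM in KO and 17.7 CPM in WT, a log2 ratio of 1.33, Spred1 had 0.89 and Errfi1 0.77. Spry2 was at 98.5 CPM in KO and 162 CPM in WT, a log2 ratio of -0.71, Dusp1 lay at -0.0032 and Spred2 at 0.09. Endothelial-like cells had 5 of 12 higher and none lower, with Dusp2 at 1.01, Spry4 at 0.77 and Dusp1 at 0.73 at the top and Spry2 at -0.50, Spred1 at -0.14 and Spred2 at 0.08 at the bottom.

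Heat shock and chaperone genes, which also respond to tissue handling, were split in FAP-like cells, with 5 of 16 higher and 4 lower. Hspb1, Hspd1 and Hspa5 had log2 ratios of 1.03, 1.01 and 0.79, while the inducible Hspa1b, at 217 CPM in KO and 375 CPM in WT, had -0.79, Dnajb1 -0.77 and Cryab -0.70. In endothelial-like cells 3 of 15 were higher and none lower, with Hsph1 at 0.68, Hspb1 at 0.63, Hsp90aa1 at 0.60, Hsf1 at 0.22, Hspe1 at 0.19 and Dnajb4 at -0.53. Myogenic-like cells had 2 of 16 higher and 5 lower. Among other bZIP genes of FAP-like cells, 3 of 19 were higher and 2 lower, close to the shares over all genes. Beside Maff, Cebpb had 0.72 and Atf1 0.61, and at the other end Maf, at 66.3 CPM in KO and 147 CPM in WT, had -1.14 and Creb5 -0.81. Endothelial-like cells had 2 of 18 higher, Maff and Cebpb, with ratios of 1.19 and 0.59, and Mafg had 0.49, Nfe2l2 at 0.05, Bach1 at -0.23 and Creb5 at -0.41. Maff, Dusp1, Errfi1 and Cebpd each stand in more than 1 list.

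The genes most like each member in level were ranked by Pearson's r of log2(CPM + 1) over the 18 sums of 9 classes in 2 libraries, which share libraries and depth. Jun and Fos were each other's near neighbours at 0.97, with Pkd2 at 0.99 and Egr1 at 0.97 also near Jun, and Ckap4 and Laptm4a, both at 0.97, near Fos. Atf3 was nearest to the heat shock gene Hspa1a, at 0.97, then Ctnnd1 and Sbf2. Junb was nearest to Pprc1, Arf4 and Hsp90aa1, Jund to Ccnl1, Ripk1 and Arnt, and Fosb to Ccp110, Trip6 and Rock2, with r from 0.95 to 0.98. Fosl2 was nearest to Lncpint, Nup98 and Ppp2r1b, from 0.94 to 0.96, and Fosl1 had the weakest neighbours, Eif4g1 at 0.87, Nup62 at 0.85 and Slc39a14 at 0.84. Within the family, Junb and Jund had 0.91, Fos and Atf3 0.82, and Jun and Fosl2 0.03.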

How the data were processed

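Single-cell 3' RNA counts of 2 libraries of digested TA muscle were used. The authors deposited filtered UMI counts per gene and barcode, made with Cell Ranger and mm10, version 9.0.0 per the submitters' processing notes; per the file headers the software version was 9.0.0 for KO and 8.0.0 for WT. Other steps are not given in the sources used here.

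Barcodes under 500 genes or over 10% mitochondrial UMIs were removed. A marker was on in a barcode when it had a UMI and its counts per 10000 exceeded the library mean. A barcode joined the class with the largest share of its 7 or 8 markers on, given at least 3 on and a runner-up share of at most 0.5 of it, which also served to leave out doublets; no doublet caller was run. Of 13 classes (102 markers), the erythroid-like one was not described, and the perineurial-like, B cell-like and neutrophil-like classes, with under 100 cells in at least 1 library, are given as levels alone. UMIs were summed per class and library and scaled to CPM, so counting error is larger in the shallower WT library. Log2 ratios used a pseudocount of 1 CPM, and their exact conditional intervals did not.

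All members are named in each compared class; of each other list, the 3 genes with the largest and the 3 with the smallest ratio in FAP-like and in endothelial-like cells are named, and for each member the 3 genes with the highest correlation. Some genes that this rule names are not reported here. The members and lists were chosen with earlier results of these data known, and the subset markers and promoter motifs after the data were seen. Alternatives changed the filter, gate, depth, scaling, pseudocount, floor and fold; the window of 2000 to 8000 UMIs and the omission of myofibre-like barcodes were added after seeing the data. Promoters came from RefSeq, build GRCm38.p6. Python 3.11.15, numpy 2.4.6, scipy 1.17.1, pandas 2.3.3 and matplotlib 3.10.9 were used, and edgeR 4.0.16 for TMM factors alone. The ratio script was tested on simulated data.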

Additional observations from a re-analysis of the deposited data

Results flagged for a closer look

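The KO over WT log2 ratio pointed in opposite directions in different classes for 3 members, each beyond 1.5-fold on both sides; the differences between classes were not tested. Fos had 1.22 in myofibre-like barcodes and -0.77 in myogenic-like cells. Jun had 0.82 in myofibre-like barcodes and -0.77 in myogenic-like cells. Atf3 had 0.62 in tenocyte-like cells and 1.57 in myofibre-like barcodes, and -0.63 in macrophage-like cells.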

How the results depend on the processing

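No paired analysis was possible because each genotype had 1 library. The count of 12 pairs at least 1.5-fold higher in KO was 6 with each cell thinned to 2000 UMIs, 6 in cells of 2000 to 8000 UMIs, 6 without myofibre-like barcodes, 7 with a floor of 100 CPM and 7 at 2-fold, and from 9 to 14 under the other settings. The thinned and depth-window counts leave out pairs under 100 UMIs, such as Fosl1 in FAP-like cells of 2000 to 8000 UMIs, at a log2 ratio of 2.79. The count of 3 lower pairs was 0 at 2-fold and from 2 to 4 otherwise. A value was taken only where a pair met the floors of a setting, which left 238 values of the 15 pairs beyond 1.5-fold. Of these values, 237 kept their sign and 218 stayed at least 1.5-fold. The 1 reversal was Junb in myofibre-like barcodes, at -0.040 in cells of 2000 to 8000 UMIs against 1.10; the cause was not tested. Where its pair met the floors of a setting, the Fosl1 log2 ratio ran from 2.49 to 3.26 in FAP-like and from 1.82 to 3.02 in tenocyte-like cells. It ran from 1.96 to 2.87 in macrophage-like, from 1.51 to 1.82 in myogenic-like and from 0.71 to 1.08 in endothelial-like cells. Under the floors, Fosl1 was at 3.15 in tenocyte-like cells when 4 markers had to be on. In macrophage-like cells under the floors it was at 1.94 when any UMI turned a marker on and at 2.93 in cells of 2000 to 8000 UMIs. Atf3 in macrophage-like cells was at -0.42 when any UMI turned a marker on and at -0.51 with at least 2 markers on. Depth limits Fosl1 in WT, where 8 UMIs in tenocyte-like and 10 in macrophage-like cells carry the value.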

Other observations

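In myogenic-like cells some stress and target genes outside the naming rule, chosen after their values were seen, stood beside the lower Fos and Jun. Ccnd1, the cyclin D gene, was at 16.3 CPM in KO and 88.0 CPM in WT, a log2 ratio of -2.36, and Plaur at 193 CPM in KO and 59.6 CPM in WT, 1.68. Hspa1b had -1.22 and Dnajb1 -1.43, in a heat shock list of which 2 of 16 were higher and 5 lower with a median of -0.00030.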
